A study of Mus musculus with 5 samples.

Results

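Transcripts of T cells and natural killer (NK) cells were examined in whole liver RNA of BALB/C mice killed on day 10 of life. The 10 genes were taken by symbol from the deposited count files: the T cell receptor chains Cd3e, Cd3d and Cd3g, the receptor kinase gene Zap70, the regulatory T cell factor Foxp3, the granzymes Gzma and Gzmb, the granule gene Nkg7, and the receptor genes Klrd1 and Il2rb. All 10 were found among 36401 identifiers. RNA came from lobe 1 of livers carrying both alleles of Mdr2 (Mdr2+/+, 2 libraries) or lacking 1 of them (Mdr2+/-, 3 libraries). Both genotypes came from an Mdr2 null line bred back to BALB/C and were kept as littermates, without treatment named in the labels. Mdr2 is the older name of Abcb4, the hepatocyte floppase that moves phosphatidylcholine into bile, and the series title ties low ABCB4 to inflammation in biliary atresia. Whether each library is a separate animal is not stated, so p-values measure the spread between these libraries, which may be technical.

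T cells recognise peptide through the T cell receptor, whose surface display and signal depend on the CD3 chains, and Zap70 carries that signal into the cell. NK cells and cytotoxic T cells kill target cells by releasing granzymes, while regulatory T cells, which need Foxp3, restrain them. Cytotoxic lymphocytes and a shortage of regulatory T cells have been implicated in the bile duct injury of biliary atresia. The comparison therefore asks whether livers that lack an Mdr2 allele differ in these transcripts.

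Of the 10 genes, 9 passed the filter on low counts and 1, Cd3e, was called between the genotypes, where 12% of all tested genes were. Cd3e was lower in Mdr2+/- livers. Zap70 and Cd3d were higher in each Mdr2+/- library than in both Mdr2+/+ libraries, while Foxp3, Gzmb and Klrd1 were lower in each. Zap70, Cd3d, Foxp3 and Gzmb were not called, and Klrd1 was not tested because it did not pass the filter. With Cd3e, the genotypes were thus fully separated for 6 of the 10. Among the 9 tested they were separated for 5, where 45.5% of all tested genes were. Of tested genes at the mean levels of these 9, 33.4% were separated. Gzma, Nkg7, Il2rb and Cd3g had overlapping groups. Whole liver was sequenced, so fewer lymphocytes and less RNA per lymphocyte cannot be told apart.

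The libraries held 11944157 to 17312851 estimated counts, of which the 10 genes together took 199 to 374. Abcb4 was 162 ± 0.0178 CPM (counts scaled to an effective library total; mean ± SD, n = 2) in Mdr2+/+ and 96.9 ± 4.06 CPM (n = 3) in Mdr2+/- livers, in the direction of the labels. All 8 hepatocyte markers were measured, with a summed level of 169800 to 197300 CPM. Over all 13959 genes tested, 12% were called (edgeR quasi-likelihood test, Benjamini-Hochberg adjusted p under 0.05). These were 925 higher and 755 lower in Mdr2+/- livers, or 704 higher and 936 lower when scaled by library size alone.

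Counts of these genes were small, from 2 to 90 per library. Zap70, Foxp3 and the other members that passed the filter on low counts had mean levels of 0.677 to 4.37 CPM, against 13.8 CPM for the median tested gene. In that range 4.49% of 3364 tested genes were called, and the typical standard error of a log2 fold change was 0.27, against 0.12 over all genes. The filter kept 9 of the 10 genes and dropped Klrd1. Of those 9, 1 was called lower, where 5.41% of all tested genes and 1.75% of those in the same range were, and 0 were called higher, where 6.63% of all tested genes were. At an unadjusted p under 0.05 there were 5 of 9, where 28.2% of all tested genes passed. Groups did not overlap for 5 of the 9, for 45.5% of all tested genes and for 33.4% of those in the same range. The median log2 fold change (Mdr2+/- minus Mdr2+/+) of the 9 was -0.26, that of all tested genes -0.002 and that of those in the same range -0.056.

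**Figure D1:**
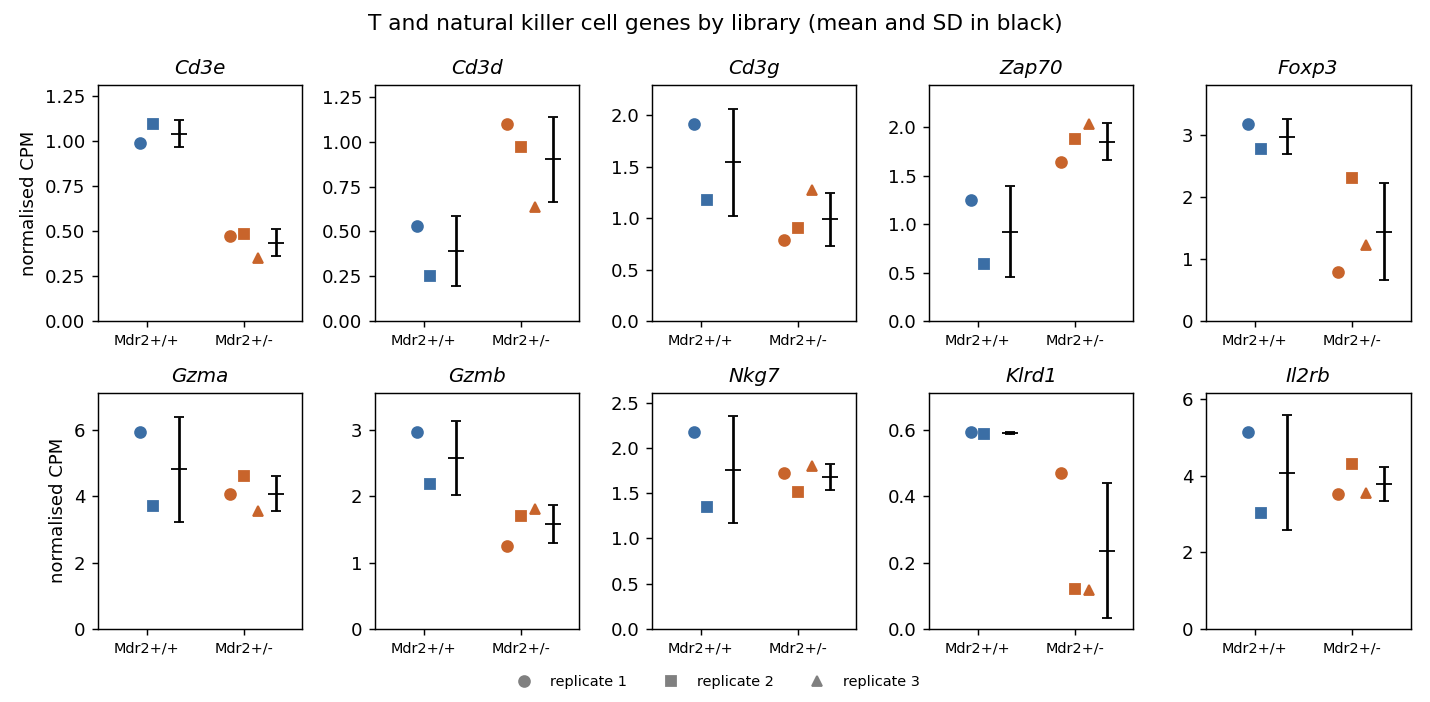
Normalised CPM of each of the 10 genes (y axis, each panel from 0) in the 2 Mdr2+/+ and 3 Mdr2+/- libraries; symbols mark the replicate number and black bars the mean and SD. Cd3e, Foxp3, Gzmb and Klrd1 lie lower in every Mdr2+/- library, Cd3d and Zap70 higher, and the other 4 overlap.

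The 3 CD3 genes are neighbours on chromosome 9 (mm10). Cd3g (ENSMUSG00000002033, 44969572 to 44980431, minus strand) and Cd3d (ENSMUSG00000032094, 44981786 to 44987339, plus strand) start 1355 bases apart and run away from each other. Cd3e (ENSMUSG00000032093, 44998740 to 45009627, minus strand) starts 27841 bases from Cd3d. Their promoters are shown because these genes encode chains of 1 receptor and yet their values pointed in different directions. The sequences are the 250 bases before each RefSeq start (GRCm38.p6), 5′ to 3′ on the gene's strand. Capitals mark matches, on either strand, to the letters of Ets, Tcf or GATA family motifs given after them.
Cd3e, chr9:45009612-45009861, minus strand: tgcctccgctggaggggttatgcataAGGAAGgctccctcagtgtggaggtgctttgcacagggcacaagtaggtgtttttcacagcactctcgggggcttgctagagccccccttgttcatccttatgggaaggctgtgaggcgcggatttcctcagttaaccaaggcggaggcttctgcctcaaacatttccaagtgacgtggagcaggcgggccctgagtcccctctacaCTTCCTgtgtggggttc
Cd3d, chr9:44981536-44981785, plus strand: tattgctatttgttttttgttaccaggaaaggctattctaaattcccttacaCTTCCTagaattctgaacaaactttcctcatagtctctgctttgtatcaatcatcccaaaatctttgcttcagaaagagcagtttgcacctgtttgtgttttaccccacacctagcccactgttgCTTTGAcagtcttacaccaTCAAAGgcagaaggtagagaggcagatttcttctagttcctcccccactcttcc
Cd3g, chr9:44980432-44980681, minus strand: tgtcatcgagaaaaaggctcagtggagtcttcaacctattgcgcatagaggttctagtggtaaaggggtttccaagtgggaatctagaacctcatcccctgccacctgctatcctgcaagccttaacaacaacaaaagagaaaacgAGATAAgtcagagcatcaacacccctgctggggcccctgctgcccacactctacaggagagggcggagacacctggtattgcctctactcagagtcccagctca
The Ets letters searched were AGGAAG, with 2 matches before Cd3e and 1 before Cd3d, and 29.5% of 32851 promoter windows of the same length held them. The Tcf letters were CTTTGA, with 2 matches before Cd3d, and 13.8% of all windows held them. The GATA letters were AGATAA, with 1 match before Cd3g, and 9.99% of all windows held them. The Runx letters, searched in the same way, were TGTGGT and had 0 matches in these 3 windows, where 14% of all windows held them. An E-box, spelled here as CAGCTG, likewise had 0 matches, where 13% of all windows held it. No matched motifs shared bases. The motifs were chosen with the sequences in view, and a match is only a match of letters.

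Cd3e encodes the epsilon chain, which pairs with both the delta and the gamma chain. It had 15 and 13 estimated counts in the Mdr2+/+ libraries and 6, 8 and 6 in the Mdr2+/- libraries. All 3 Mdr2+/- libraries lay below both Mdr2+/+ libraries. Its level fell from 1.04 ± 0.0728 CPM (SD, n = 2) to 0.435 ± 0.0750 CPM (n = 3), a log2 fold change of -1.25 (SE 0.34, 95% interval -2.00 to -0.49, adjusted p = 0.0415 in edgeR). By counts alone the Mdr2+/- over Mdr2+/+ ratio was 0.405 (95% limits 0.216 and 0.745). All such limits of count ratios are exact and cover error of counting alone. The call ended with any 1 of the 5 libraries left out (adjusted p = 0.0696 to 0.160), with the replicate number as a block (0.133) and with an offset for transcript length (0.0534). DESeq2 gave it no adjusted p (unadjusted p = 0.0643 in its Wald test). In the edgeR and limma alternatives the log2 fold change stayed between -1.35 and -1.10.

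Cd3d, the delta chain, pointed the other way. It had 8 and 3.13 estimated counts in Mdr2+/+ and 14.1, 16 and 11 in Mdr2+/- libraries, so each Mdr2+/- library was above both Mdr2+/+ libraries although the latter are at or near the floor of 3 counts. The log2 fold change of 1.11 (SE 0.44, 95% interval 0.12 to 2.10) did not pass (adjusted p = 0.135), and the count ratio was 2.11 (exact 95% interval 1.07 to 4.56). That ratio was 3.48 (1.11 to 17.6) without Mdr2+/+ replicate 1 and 1.6 (0.741 to 3.95) without Mdr2+/+ replicate 2, and its interval also included 1 without Mdr2+/- replicate 1 or 2. Cd3g, the gamma chain, had 28.8 and 13.5 counts in Mdr2+/+ and 10.1, 14.7 and 21.6 in Mdr2+/- livers. Those groups overlapped, and the difference did not pass (log2 fold change -0.64, SE 0.32, adjusted p = 0.232). Cd3g had fractional counts in all 5 libraries and Cd3d in 2, so the assignment of some of their reads is uncertain.

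Because the chains belong to 1 complex, their ratios within a library were compared, which removes library depth. This comparison was chosen after the values were seen. The Cd3d over Cd3e ratio was 0.533 and 0.241 in Mdr2+/+ and 2.34, 2.00 and 1.83 in Mdr2+/- libraries, so the 2 genes changed rank in every Mdr2+/- library. On the log2 scale the genotypes differed by 2.51 (exact permutation test, two-sided, p = 0.1, adjusted over 3 pairs 0.3). With 10 arrangements of the libraries, 0.1 is the smallest p this design can give. The Cd3d over Cd3g ratio also separated the genotypes (0.278 and 0.232 against 1.39, 1.09 and 0.510; exact p = 0.2), and the Cd3g over Cd3e ratio overlapped (exact p = 0.6). Added together, the 3 genes had 52 and 30 counts in Mdr2+/+ and 30, 39 and 39 in Mdr2+/- libraries. Scaled to depth these were 3.43 and 2.52 against 2.35, 2.37 and 2.27 CPM, so the groups did not overlap. The ratio per library size was 0.747 (exact 95% interval 0.555 to 1.01). For Gzma, Gzmb and Nkg7 together it was 0.763 (0.647 to 0.901), and for all 10 genes 0.785 (0.704 to 0.875). Both of those sums had overlapping groups in CPM, and the intervals cover error of counting alone.

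**Figure D2:**
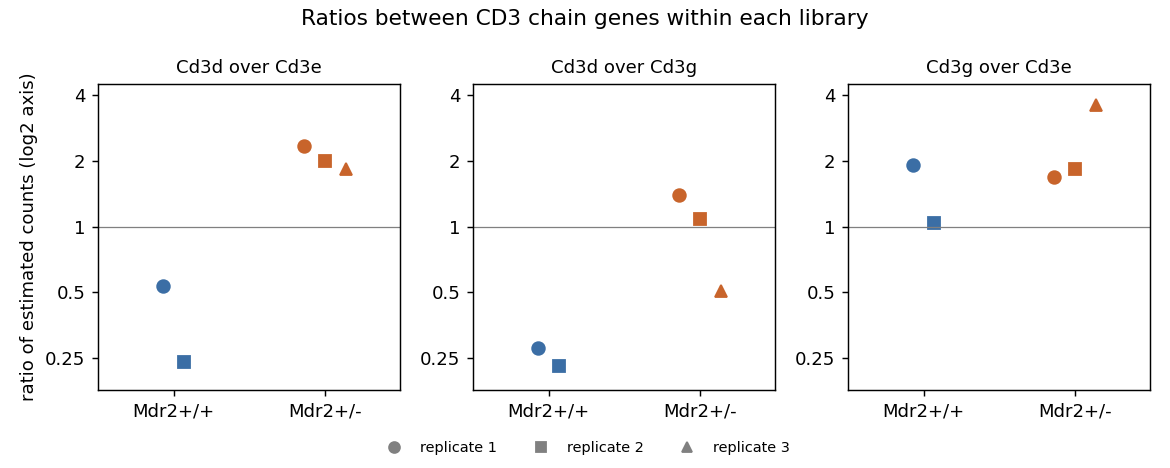
Ratio of estimated counts between pairs of CD3 chain genes within each library (y axis, log2 scale), Mdr2+/+ in blue and Mdr2+/- in orange. Cd3d over Cd3e is 0.533 or less in the Mdr2+/+ libraries and 1.83 or more in the Mdr2+/- libraries, while Cd3g over Cd3e overlaps.

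Zap70 (ENSMUSG00000026117, chromosome 1, 36761798 to 36782818, plus strand) encodes the kinase that docks on phosphorylated CD3 and zeta chains. It is also made in NK cells and in B cell precursors of the mouse. Zap70 had 19 and 7 counts in Mdr2+/+ and 21, 31 and 34.8 in Mdr2+/- livers, or 1.25 and 0.588 against 1.65, 1.88 and 2.03 CPM. Every Mdr2+/- library was above both Mdr2+/+ libraries. The log2 fold change of 0.96 (SE 0.32, 95% interval 0.24 to 1.68) did not pass (adjusted p = 0.0838), and it ran from 0.57 without Mdr2+/+ replicate 2 to 1.65 without Mdr2+/+ replicate 1. With no filter on low counts Zap70 was called (adjusted p = 0.0414). B cell lineage markers, with 8 of 10 called higher and 0 lower, had summed levels of 20.4 and 14.8 CPM in Mdr2+/+ and 37.0 to 45.1 CPM in Mdr2+/- livers. The 8 became 3 without Mdr2+/+ replicate 2, and 5 without Mdr2+/+ replicate 1, without Mdr2+/- replicate 3 or with the replicate block. All 10 were tested, and their part in the Zap70 values was not tested.

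Foxp3 (ENSMUSG00000039521, chromosome X, 7573644 to 7595245, plus strand) is the defining transcription factor of regulatory T cells. It had 48.0 and 33.4 estimated counts in Mdr2+/+ and 9.57, 38.1 and 21.0 in Mdr2+/- livers, or 3.17 and 2.77 against 0.784, 2.30 and 1.22 CPM. The groups did not overlap, yet Mdr2+/- replicate 2 sat close to the Mdr2+/+ libraries. The log2 fold change was -1.01 (SE 0.35, 95% interval -1.80 to -0.23, adjusted p = 0.0918). Foxp3 was called with no filter on low counts (adjusted p = 0.0158) and without Mdr2+/- replicate 2 (0.0224, log2 fold change -1.53), and in 0 of the other 12 alternative fits.

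The Foxp3 counts are uncertain, because its annotated exons share bases with those of other counted genes. Ppp1r3f on the opposite strand shares 266 bases and had a mean of 149 counts per library, Ccdc22 shares 590 on the opposite strand, and 4930524L23Rik shares 853 on the same strand. Ppp1r3f had a log2 fold change of -0.26 (adjusted p = 0.167). Ccdc22 had 0 and 0 counts in Mdr2+/+ and 18.0, 23.2 and 0 in Mdr2+/- libraries (adjusted p = 0.108), so it was seen only in 2 of the Mdr2+/- libraries. 4930524L23Rik had 7 and 1.21 counts in Mdr2+/+ and 7, 11 and 8.86 in Mdr2+/- libraries, too few for the filter. Ppp1r3f was lower in each Mdr2+/- library than in both Mdr2+/+ libraries, as Foxp3 was, and 4930524L23Rik was higher in each. How reads were divided between Foxp3 and these genes was not tested, nor was the part of that division in the separation of the Foxp3 groups. Foxp3 was fractional in all 5 libraries. Per kilobase of its longest transcript, Foxp3 stood at 0.775 ± 0.0726 CPM in Mdr2+/+ livers. There Cd3e had 0.408 ± 0.0285, Cd3d 0.241 ± 0.121 and Cd3g 0.609 ± 0.205 CPM per kilobase. In Mdr2+/- livers Foxp3 had 0.375 ± 0.204, above Cd3e (0.171 ± 0.0294) and below Cd3d (0.558 ± 0.146) and Cd3g (0.390 ± 0.101). Regulatory T cells carry Foxp3 and these chains. Of 14 other regulatory T cell genes, 8 were tested and 0 were called in either direction (edgeR, where 1 had an unadjusted p under 0.05), with a median log2 fold change of 0.061. The inhibitory receptor gene Ctla4 and the cytokine gene Il10 were at or under 3 counts in every library, and Gpr83 was at 0 in all. Icos, a co-stimulatory receptor, had a log2 fold change of -0.93 (1.01 ± 0.246 to 0.534 ± 0.115 CPM, adjusted p = 0.116). The integrin gene Itgae had -0.55 (adjusted p = 0.244) and Ikzf2, a transcription factor gene, -0.57 (adjusted p = 0.447, overlapping groups). On the other side of 0 stood Ikzf4, also a transcription factor gene (0.56, adjusted p = 0.385), and Il2ra, the interleukin 2 receptor alpha chain (0.61, adjusted p = 0.449). The cytokine gene Tgfb1 (0.23, adjusted p = 0.385) and Lrrc32 (0.15, adjusted p = 0.423) stood there too, each of these with overlapping groups. Nrp1 had -0.03 (adjusted p = 0.785). Tgfb1, Lrrc32 and Nrp1 had 17.3, 11.4 and 62.5 CPM in Mdr2+/+ livers, above all 10 T and NK genes, and they enter the median. Which cells held them was not tested.

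Granzymes are serine proteases that trigger death of the target cell. Gzma (ENSMUSG00000023132, chromosome 13, 113093825 to 113100981, minus strand) was the most abundant of the 10 genes per kilobase, from 3.56 to 5.96 CPM per kilobase. It had 90 and 44 counts in Mdr2+/+ and 52, 76 and 61 in Mdr2+/- livers. The genotypes overlapped, with a log2 fold change of -0.26 (95% interval -0.77 to 0.24, adjusted p = 0.492).

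Gzmb (ENSMUSG00000015437, chromosome 14, 56258838 to 56262260, minus strand) had 45 and 26 counts in Mdr2+/+ and 16, 28 and 31 in Mdr2+/- libraries. Scaled to depth these were 2.97 and 2.19 CPM against 1.25, 1.70 and 1.80 CPM, so no Mdr2+/- library reached the lower Mdr2+/+ library. The log2 fold change of -0.70 (SE 0.25, 95% interval -1.26 to -0.13) did not pass (adjusted p = 0.103) and was called in 0 of 14 alternative fits in edgeR, limma or DESeq2 (adjusted p = 0.0802 to 0.478). Nkg7 (ENSMUSG00000004612, chromosome 7, 43437073 to 43438249, plus strand), a membrane protein of cytotoxic granules, had 33 and 16 counts in Mdr2+/+ and 22, 25 and 31 in Mdr2+/- livers. Its log2 fold change of -0.10 had an interval of -0.70 to 0.51, which leaves room for differences of 0.615 to 1.42 times.

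Of 18 further granule and killing genes, 9 were tested, 1 was called higher and 0 lower, with a median of -0.13. The called gene was Rab27a, a small GTPase that docks secretory granules in many cell types, neutrophils among them (5.06 ± 0.809 to 10.3 ± 0.647 CPM, log2 fold change 1.04, adjusted p = 0.00298). Neutrophil markers were called higher in 8 of 8 cases, with summed levels of 158 and 108 CPM in Mdr2+/+ and 352 to 450.1 CPM in Mdr2+/- livers. Their part in the Rab27a value was not tested. Tnfsf10, which encodes the death ligand TRAIL, had -0.49 and the protease inhibitor gene Serpinb9 -0.37 (adjusted p = 0.109 and 0.112). Gzmc, Gzmk, Gzmm and the interferon gamma gene Ifng were at or under 3 counts in every library, and Gzmd and Gzme were at 0 in all. Differences in these were not detectable at this depth, where 3 counts correspond to 0.173 to 0.251 CPM.

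Klrd1 (ENSMUSG00000030165, chromosome 6, 129591782 to 129598775, plus strand) encodes CD94, the partner of the NKG2 receptors on NK cells. Its 9.20 and 6.62 estimated counts in Mdr2+/+ and 6, 2 and 2 in Mdr2+/- libraries were too few for the filter, and 2 of the Mdr2+/- libraries were under the floor of 3 counts. The groups did not overlap. Over each genotype, 16 rounded counts stood against 10, a Mdr2+/- over Mdr2+/+ ratio of 0.354 (95% limits 0.144 and 0.830). The ratio was 0.196 without Mdr2+/- replicate 1, and the upper limit passed 1 without Mdr2+/+ replicate 1 (1.13) or Mdr2+/- replicate 2 (1.09) or 3 (1.11). With no filter its log2 fold change was -1.41 and did not pass (adjusted p = 0.162).

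Il2rb (ENSMUSG00000068227, chromosome 15, 78479256 to 78495271, minus strand) encodes the beta chain shared by the interleukin 2 and interleukin 15 receptors, which NK cells need to survive. It had 78 and 36 counts in Mdr2+/+ and 45, 71 and 61 in Mdr2+/- livers, and all 3 Mdr2+/- values lay between the Mdr2+/+ values once scaled to depth. The log2 fold change was -0.13 (95% interval -0.66 to 0.40, adjusted p = 0.770), so a difference between 0.633 and 1.32 times was compatible with the data.

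**Figure D3:**
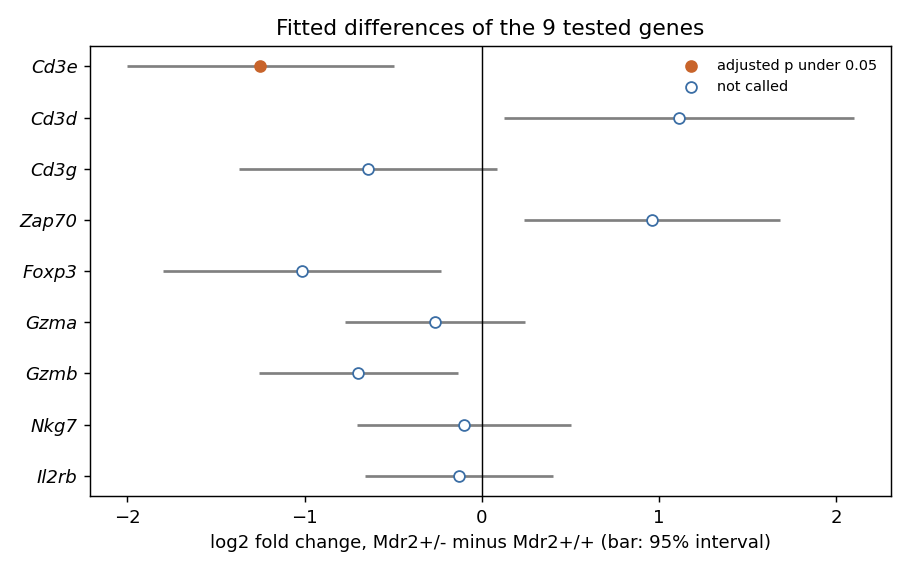
Fitted log2 fold change (x axis, Mdr2+/- minus Mdr2+/+) of the 9 tested genes with 95% intervals over 5 libraries; the filled point marks the call. Cd3e is called at -1.25, the intervals of Cd3d and Zap70 lie above 0 and those of Foxp3 and Gzmb below it without passing the adjusted threshold, and the other 4 include 0.

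The 2 Mdr2+/+ libraries differed from each other across most of these genes. Of the 10 genes, 9 were higher in Mdr2+/+ replicate 1 than in replicate 2, and 6 were at least 1.4 times higher: Zap70 (2.13 times), Cd3d (2.09), Il2rb (1.70), Cd3g (1.63), Nkg7 (1.62) and Gzma (1.61). Over all tested genes 49.6% were higher in replicate 1 and 7.33% by at least 1.4 times, and in the same range of levels 54.0% and 19.5%. Cd3e, at 0.906 times, was the exception. This pattern was noticed after the values were seen. With replicate 1 left out, the log2 fold changes of Gzma, Nkg7 and Il2rb turned from below to above 0 (0.14, 0.31 and 0.33), and none passed.

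**Figure D4:**
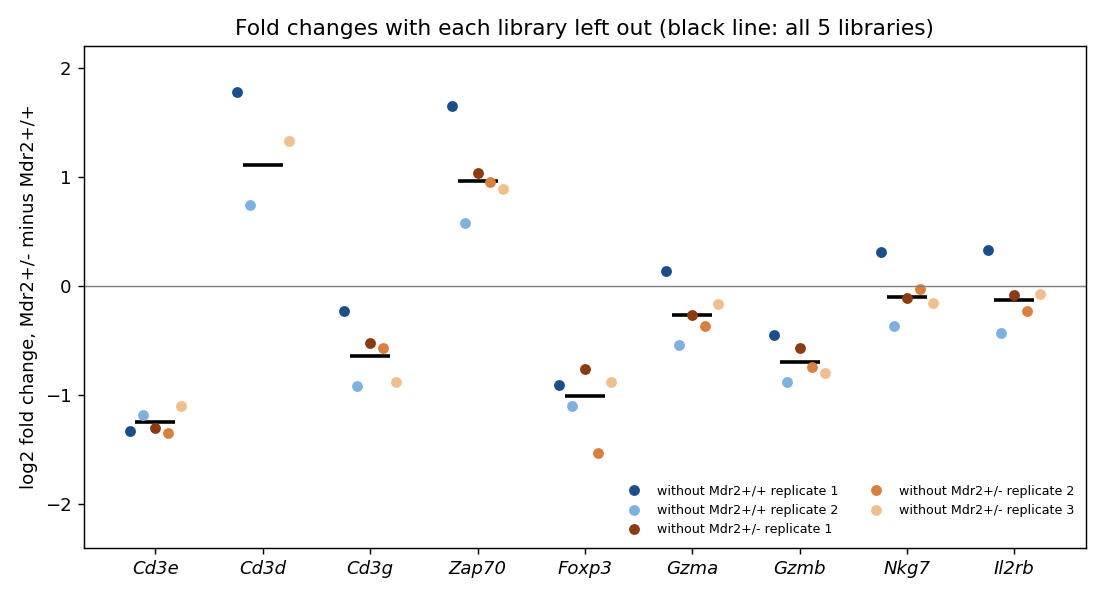
Log2 fold change of each tested gene (y axis) with all 5 libraries (black line) and with each library left out (points, coloured by the library). Cd3d has no point without Mdr2+/- replicate 1 or 2, where it did not pass the filter on low counts. Cd3e stays between -1.35 and -1.10, whereas Gzma, Nkg7 and Il2rb cross 0 without Mdr2+/+ replicate 1.

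The other genes of these pathways were read from 9 lists holding 126 measured genes, of which 76 were tested and 9 called (11.8%, near the 12% of all tested genes), 7 higher and 2 lower. Among T cell receptor chains and co-receptors, 7 of 13 were tested and 0 called (edgeR, 1 at an unadjusted p under 0.05, median -0.36). Thy1, a surface glycoprotein of T cells, had a log2 fold change of -0.76 (adjusted p = 0.129) and the co-receptor gene Cd4 -0.39 (adjusted p = 0.297). Both were lower in each Mdr2+/- library than in both Mdr2+/+ libraries. For Cd4 the margin was narrow (2.352 CPM in Mdr2+/- replicate 1, 2.353 CPM in Mdr2+/+ replicate 2). Cd2, an adhesion receptor of T and NK cells, had 0.46 (adjusted p = 0.486), with 0.528 and 0.672 CPM in Mdr2+/+ and 1.02, 0.728 and 0.755 CPM in Mdr2+/- livers, so its groups did not overlap either. Constant region gene Trac and co-receptor gene Cd8a did not reach the filter. Among 17 receptor signalling genes, 12 were tested and 1 was called, the phospholipase gene Plcg1 (23.9 ± 1.36 to 32.8 ± 0.556 CPM, log2 fold change 0.46, adjusted p = 0.00573), whose exons share 379 bases with Zhx3 on the opposite strand. Plcg1 lost its call without Mdr2+/+ replicate 1 (adjusted p = 0.0514). The highest mean of the tested T and NK genes was 4.37 CPM, below Plcg1 in both genotypes, and which cells held Plcg1 was not tested. The kinase genes Fyn and Prkcq had -0.25 and -0.35, and the adaptor gene Lat 0.64 (adjusted p = 0.153, 0.346 and 0.218).

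NK receptor and adaptor genes had 7 of 21 tested and 0 called (edgeR, 2 at an unadjusted p under 0.05, median -0.34). Ncr1, which encodes the NK receptor NKp46, went from 2.84 and 2.02 CPM in Mdr2+/+ to 1.02, 1.70 and 1.69 CPM in Mdr2+/- livers (log2 fold change -0.71, adjusted p = 0.130). Its groups did not overlap. The activating receptor gene Klrk1 had -0.53 (adjusted p = 0.269), and the adaptor genes Fcer1g and Tyrobp, which macrophages also use, had -0.34 and -0.24 (adjusted p = 0.0684 and 0.206). A further 9 genes of this list were at or under 3 counts in every library.

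Lymphocyte attracting chemokines and their receptors had 9 of 13 tested, 1 lower and 0 higher (median -0.26). The 1 was Cxcl9, an interferon gamma induced ligand of Cxcr3, at 26.0 and 13.4 CPM in Mdr2+/+ and 10.4, 11.6 and 10.4 CPM in Mdr2+/- livers (log2 fold change -0.88, SE 0.22, adjusted p = 0.0323). Both Mdr2+/+ libraries were higher, replicate 1 by far. Cxcl9 lost its call without Mdr2+/+ replicate 1, without any of the Mdr2+/- libraries and with the replicate number as a block (adjusted p = 0.0536 to 0.215), with a log2 fold change of -0.32 without Mdr2+/+ replicate 1. Xcl1, a chemokine made by NK cells, had -0.96 (adjusted p = 0.161). Of 10 tested genes of interleukin 2 and 15 signalling, Stat5b, a transcription factor downstream of many cytokine receptors, was called higher (log2 fold change 0.34, adjusted p = 0.0218) and lost its call without either Mdr2+/+ library or Mdr2+/- replicate 1 (0.0506 to 0.113). The cytokine gene Il7 had -0.51 (adjusted p = 0.0864).

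T cell differentiation genes had 2 of 11 higher and 1 lower. Il7r, the interleukin 7 receptor of T cells and of lymphoid precursors, rose from 0.528 and 0.672 CPM to 1.96, 2.06 and 2.56 CPM (log2 fold change 1.88, SE 0.30, adjusted p = 0.00517). All 3 Mdr2+/- libraries were far above both Mdr2+/+ libraries, and the call ended without Mdr2+/+ replicate 1 (adjusted p = 0.0573). Tcf7, a factor of T cell commitment, was lower (14.4 ± 1.66 to 9.60 ± 0.546 CPM, log2 fold change -0.58, adjusted p = 0.0134), except without Mdr2+/+ replicate 2 (0.0778). Tcf7 stood above the highest mean of the tested T and NK genes (4.37 CPM) in both genotypes, and which cells held it was not tested. Ets1, a transcription factor also made outside T cells, was higher by 0.36 on the log2 scale (adjusted p = 0.0226). It lost its call in 3 of 14 alternative fits (without Mdr2+/+ replicate 1 or Mdr2+/- replicate 1 or 2).

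Genes of immature T cells had 2 of 4 higher and 0 lower. Rag1, a subunit of the recombinase that assembles both T and B cell receptors, went from 1.12 and 0.336 CPM to 4.47, 2.67 and 3.37 CPM (log2 fold change 2.15, SE 0.40, adjusted p = 0.0102), and its log2 fold change was 3.33 without Mdr2+/+ replicate 1. It shares 80 exon bases with B230118H07Rik on the same strand. Dntt, the polymerase that adds bases at receptor joints, rose from 0.396 and 0.336 CPM to 1.18, 1.15 and 0.813 CPM (log2 fold change 1.47, adjusted p = 0.0380), and lost its call without either Mdr2+/+ library or Mdr2+/- replicate 1 or 2 (0.0753 to 0.153). The other tested genes of this list, Cd1d1 and Cd8b1, had -0.24 and -0.13 (adjusted p = 0.0931 and 0.832). Ptcra, the pre-T cell receptor chain that marks thymocytes, was at 0 in all 5 libraries. B cell lineage markers were higher in the same libraries (above), and their part in the Il7r, Rag1 and Dntt values was not tested.

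**Figure D5:**
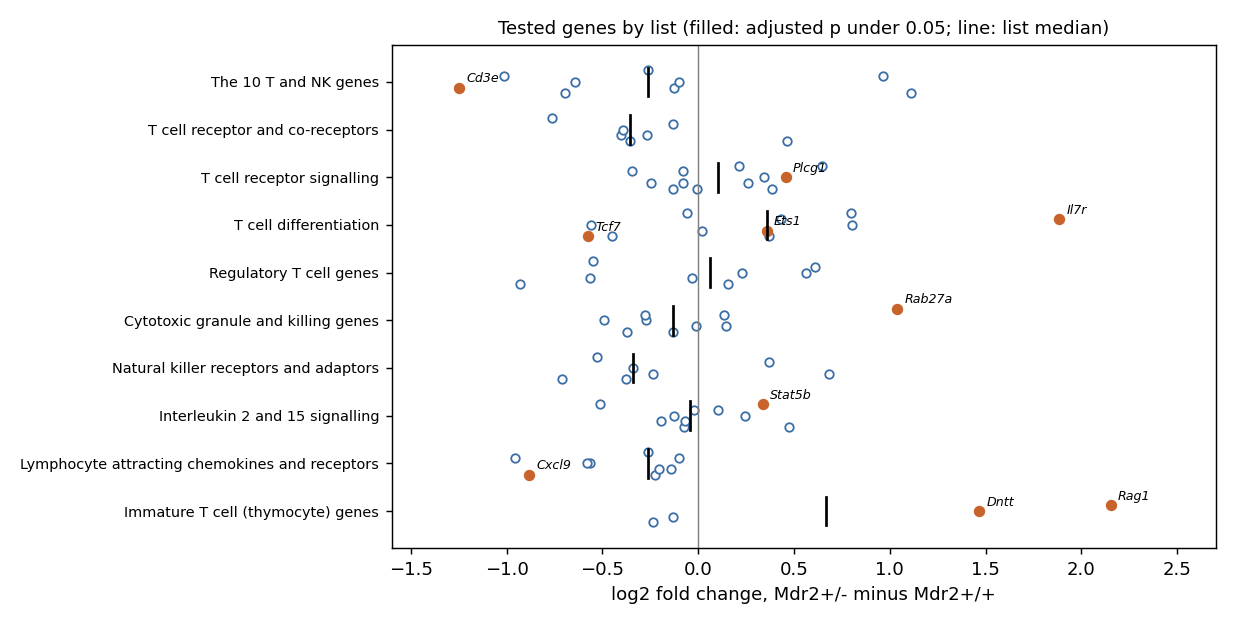
Log2 fold change (x axis, Mdr2+/- minus Mdr2+/+) of every tested gene in each list (rows), with filled points for adjusted p under 0.05 and a line at the list's median; vertical offsets only separate points. The called genes are Cd3e, Tcf7 and Cxcl9 on the lower side and Plcg1, Il7r, Ets1, Rab27a, Stat5b, Dntt and Rag1 on the higher side.

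Markers of other cells that could hold some of these transcripts were measured in the same libraries. Mast cell and basophil markers had 5 of 9 tested and 0 called (edgeR, 2 at an unadjusted p under 0.05), with summed levels of 5.63 to 7.65 CPM in Mdr2+/+ and 8.31 to 11.9 CPM in Mdr2+/- livers, and Fcer1a and Ms4a2 at or under 3 counts in every library. Dendritic cell markers had 6 of 8 tested and 0 called (1 at an unadjusted p under 0.05), with 73.0 to 94.8 and 65.8 to 76.3 CPM. Kupffer cell markers had summed levels of 299 to 449.6 and 312 to 364 CPM, and both that sum and the dendritic sum were higher in Mdr2+/+ replicate 1 than in replicate 2. Of the 7 Kupffer markers 1 was lower and 0 higher, with a median of -0.13. Marco was the lower one (log2 fold change -1.03, adjusted p = 0.0241). It lost its call in 5 of 14 alternative fits and stood at -0.37 without Mdr2+/+ replicate 1. Emr1 went the other way (0.51, adjusted p = 0.0683 in edgeR), higher in each Mdr2+/- library than in both Mdr2+/+ libraries. Cd5l also stood above 0 (0.17, overlapping groups). With the replicate block 1 Kupffer marker was called higher and 1 lower. Erythroid markers had 6 of 7 lower (331 to 386 against 232.1 to 239.5 CPM), or 4 without Mdr2+/+ replicate 1. Hepatocyte markers had 1 of 8 lower and 0 higher, with a median of 0.081. Apoa1 was the lower one (log2 fold change -0.21) and lost its call in 6 of 14 alternative fits, among them the length offset (adjusted p = 0.518 in edgeR). Apob went the other way (0.22, adjusted p = 0.0523 in edgeR), higher in each Mdr2+/- library than in both Mdr2+/+ libraries. DESeq2 and limma each called 1 hepatocyte marker higher, and 3 were called higher with no filter on low counts. The part of these cells in the values of the 10 genes was not tested.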

How the data were processed

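Per the labels' protocols, TruSeq RNA libraries of lobe 1 were sequenced on an Illumina HiSeq. TopHat and mm10 appear in the submitters' processing notes. The TopHat version, counting tool, annotation and strand setting were not given in the sources used here. The authors deposited estimated counts per Ensembl gene, not scaled to depth or length. Counts were rounded, filtered (filterByExpr, minimum count 10), scaled by TMM and tested in edgeR 4.0.16 by the quasi-likelihood test (two-sided, R 4.3.3) and p-values were adjusted by Benjamini-Hochberg across the 13959 genes tested, which hold 99.9% of the counts. Intervals of log2 fold changes use its t distribution; count ratios use library totals and the exact conditional interval at 95%. Per-gene coordinates and lengths are from GENCODE M21 (same build; 87.3% of identifiers matched), and promoters from RefSeq, GRCm38.p6 (8 of 10 genes matched). The procedure was also run on simulated counts, and the outcome is not used here as support for any call. Alternatives were other scalings, filters, rounding, DESeq2 1.42.0, limma 3.58.1, a replicate block, a length offset and each library left out.

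The 10 genes and all lists were chosen with earlier results of these data known. Named genes are the 10, up to 4 genes by p-value and every called gene of each pathway list, and Abcb4; genes named outside it, such as those at the floor, were chosen after their values were seen. A gene of the pathway lists is not reported here and was left out of their counts; it stayed in the fits over all genes.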

Additional observations from a re-analysis of the deposited data

How the results depend on the processing

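Of the 9 tested T and NK genes, 1 (Cd3e) was called. The count was 3 with no filter on low counts (Cd3e, Foxp3 and Zap70) and 0 in DESeq2 (1 at an unadjusted p under 0.05; 3 genes, Cd3e among them, got no adjusted p there), with the replicate block (6 at an unadjusted p under 0.05) and with the length offset (5). With single libraries left out it was 0 to 1; the 1, without Mdr2+/- replicate 2, was Foxp3. The pathway genes called were 9, and 5 to 8 with a library left out, 5 of them without Mdr2+/- replicate 1. Over all genes 1680 were called, and 697 to 1174 with a library left out (697 without Mdr2+/+ replicate 1, 838 without Mdr2+/- replicate 2, 907 without Mdr2+/+ replicate 2, 1068 without Mdr2+/- replicate 3), where fewer samples enter the fit. Directions turned for Gzma (0.14), Nkg7 (0.31) and Il2rb (0.33) without Mdr2+/+ replicate 1, and with single libraries left out these log2 fold changes ran down to -0.54, -0.37 and -0.43. Nkg7 also turned with the length offset (0.056); the cause was not tested. Of 121 alternative fold changes of the 9 genes, 107 kept direction and side of the threshold. Replicate numbers are not said to mark a litter, and differences between numbers 1 and 2 correlated by 0.0331 between the genotypes over genes. Totals of 2 to 90 counts per gene and library limit every comparison here.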
